A study of Lachancea kluyveri with 16 samples.

Results

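GDH3 (SAKL0D14982g) of the budding yeast Lachancea kluyveri encodes an NADP-dependent glutamate dehydrogenase, and its transcript level was followed over the 4 combinations of strain and growth medium in the study. The gene was chosen because its signal was lower on glycerol than on glucose in these same arrays. The difference between media is therefore described here without a test, and tests were kept for the comparisons between strains, which did not enter the choice. GDH3 is 1 of the 5316 genes on the array and is read by 2 probes. One strain was the wild type (WT, strain JYL1897, MATa ura3). The other, derived from it, lacked SEF1, which encodes a zinc cluster transcription factor (sef1Δ, strain SkSef1KA1, MATa ura3 sef1Δ::KanMX6). Each genotype was 1 strain, so that the deletion, its marker and any other difference between the strains cannot be told apart. Cells were precultured in YPD at 28 °C, diluted to an optical density of 0.2 per ml into YPD, a rich medium with glucose, or YPGly, a rich medium with glycerol, and grown for 5.5 h at 30 °C. The glycerol cultures had thus left glucose 5.5 h earlier, and carbon source, growth rate and time after the shift cannot be told apart. Each of the 4 groups had 4 one-colour arrays, labelled as biological repeats 1 to 4.

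Glutamate is the main nitrogen donor of the yeast cell, and it is made from ammonium by either of 2 routes. An NADP-dependent glutamate dehydrogenase joins ammonium to 2-oxoglutarate, an intermediate of the tricarboxylic acid cycle, and uses NADPH as the reductant. The other route runs through glutamine synthetase and the glutamate synthase Glt1. A separate, NAD-dependent enzyme, Gdh2, works in the opposite direction and releases ammonium and 2-oxoglutarate from glutamate. In Saccharomyces cerevisiae the NADP-dependent enzyme is encoded by a pair of genes, GDH1 and GDH3, which arose in the whole-genome duplication. Lachancea kluyveri split off before that event, and the study's ortholog table pairs SAKL0D14982g with both of them. Neither GDH3 probe name lists another gene with shared sequence, as the names of some probes on this array do.

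Arrays differed 3.36-fold in strength, the 75th percentiles of their processed signals running from 718 to 2410, and 90.5% to 98.7% of the probes on an array were well above background. Replicate arrays correlated across probes at 0.915 to 0.993. SEF1 itself, on the log2 scale described below, lay between -2.57 and -1.41 on the 8 WT arrays, and between -9.56 and -8.09 on 7 of the 8 sef1Δ arrays. The remaining array, replicate 3 of sef1Δ in YPGly, read -5.90 for SEF1, was well above background for it, and held 22 of the 32 outlier spots of the series. For GDH3 and GDH2 the results that use this array are therefore also given without it. Of the 25 named genes other than GDH3, 24 were on the same side of the threshold without it in the sef1Δ comparison between media, and the exception is given with its value. Replicate 4 of WT in YPD had the lowest share of probes well above background, 90.5% against at least 96.2% elsewhere. Each slide held 2 arrays of every group, and a group kept the same column on both slides, so column and group cannot be told apart.

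GDH3 was high in YPD and low in YPGly in both strains. All 32 GDH3 spots were well above background, and none was saturated. Before scaling, the processed signal of the brighter probe ran from 3312 to 15952 in WT in YPD and from 325 to 703 in WT in YPGly. In sef1Δ it ran from 4080 to 14330.5 in YPD and from 324 to 1295 in YPGly. The values that follow are log2 signals relative to the 75th percentile of the same array, so that 0 is the level below which 75% of the gene probes lie. These are bulk measurements, in which fewer expressing cells and less RNA per cell cannot be told apart.

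In WT in YPD the brighter probe read 2.94, 1.92, 1.96 and 3.79 on replicates 1 to 4. Replicate 4 stood highest, replicates 2 and 3 lay close together, and the mean was 2.65 ± 0.89 (SD, n = 4). In sef1Δ in YPD the same probe read 2.71, 2.08, 2.57 and 2.44. These 4 arrays all fell inside the WT range, with a mean of 2.45 ± 0.27 (SD, n = 4). In WT in YPGly it read -1.67, -1.03, -2.12 and -1.93, which is below every YPD array, with a mean of -1.69 ± 0.48 (SD, n = 4). In sef1Δ in YPGly it read -0.81, -1.15, -0.89 and -1.19, with a mean of -1.01 ± 0.18 (SD, n = 4). The highest WT array in YPGly, replicate 2, lay among the sef1Δ arrays, and the other 3 WT arrays lay below all of them. From highest to lowest the group means were thus ordered WT in YPD, sef1Δ in YPD, sef1Δ in YPGly and WT in YPGly. The ranges of the first pair overlapped, as did those of the last pair, whereas no YPD array overlapped a YPGly array.

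The second probe gave the same order of groups. Its means were 2.34 ± 0.87 in WT in YPD, 2.14 ± 0.30 in sef1Δ in YPD, -1.40 ± 0.35 in sef1Δ in YPGly and -2.07 ± 0.53 in WT in YPGly (SD, n = 4 each). On every array it read lower than the first, by 0.20 to 0.68 log2 units. The widest gap, 0.68, was on an array of sef1Δ in YPGly, where the gap had its largest SD, 0.21.

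**Figure D1:**
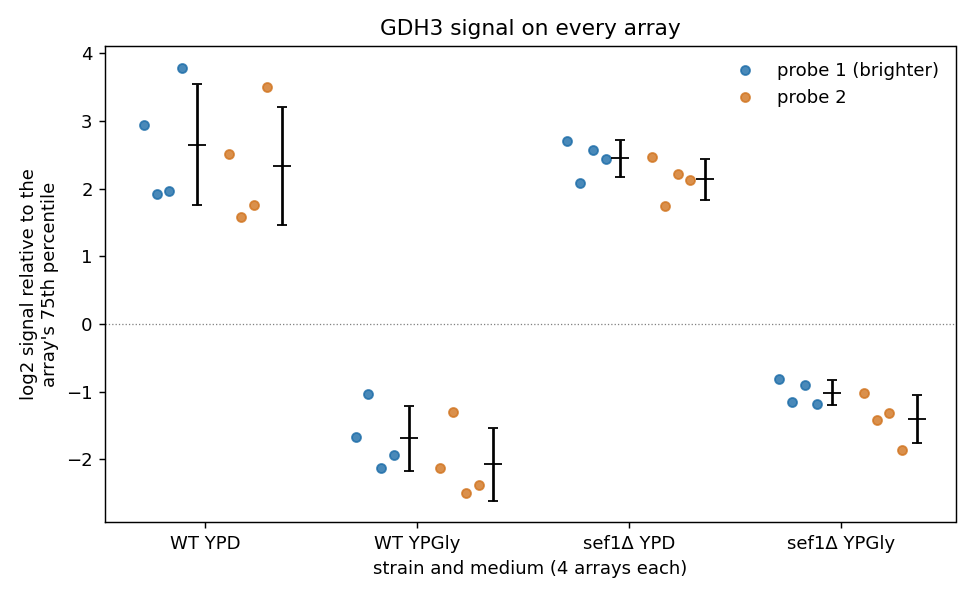
Log2 signal of GDH3 relative to each array's 75th percentile (vertical axis) in the 4 groups (horizontal axis), with 1 point per array for each of the 2 probes and bars giving mean ± SD of 4 arrays. All YPD points lie above 1.5 and all YPGly points below -0.8, and the widest spread is among the WT arrays in YPD.

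Between media, GDH3 fell by 4.34 ± 0.40 log2 units in WT (limma standard error), a 20.3-fold lower signal in YPGly. In sef1Δ it fell by 3.46 ± 0.18 log2 units, or 11.0-fold. The second probe changed by -4.41 ± 0.41 in WT and -3.54 ± 0.22 in sef1Δ. Arrays with the same replicate number differed by -4.61, -2.95, -4.08 and -5.72 in WT and by -3.53, -3.23, -3.47 and -3.63 in sef1Δ, and so the fall varied more between WT numbers than between sef1Δ numbers. Among the 4255 genes with enough signal to be tested, this was the 5th lowest change in WT and the 8th lowest in sef1Δ. A gene is called here at an adjusted p of at most 0.05 (limma, Benjamini-Hochberg) and at least 1.5-fold. By that rule 24.3% of the tested genes were lower in YPGly in WT and 22.4% in sef1Δ, and the groups did not overlap for 45.2% and 42.0% of genes. GDH3 was picked on this contrast, so its place among these genes is not a result. Within slide 1 the change was -3.78 in WT and -3.38 in sef1Δ, and within slide 2 it was -4.90 and -3.55. Without replicate 4 of WT in YPD the WT change was -3.96, and without replicate 3 of sef1Δ in YPGly the sef1Δ change was -3.50.

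In YPD, deletion of SEF1 left GDH3 within the spread of the WT arrays. The difference, sef1Δ minus WT, was -0.20 ± 0.38 log2 units (limma adjusted p = 0.999; exact two-sided permutation p = 0.743, where 0.0286 is the smallest that 4 against 4 arrays can give). The 95% interval ran from -1.05 to 0.64. Only 0.0705% of the tested genes were called lower in sef1Δ in YPD and 0% were called higher (limma; 113 genes had an unadjusted p under 0.05). The direction rested on 1 array. Without replicate 4 of WT in YPD the difference was 0.18 ± 0.27. Within slides 1 and 2 it was -0.04 and -0.37. With the replicate number, which pairs the WT and sef1Δ arrays, as a block it was -0.20 ± 0.28 (limma adjusted p = 0.827). The spread of GDH3 in WT in YPD was itself large, since 98.7% of the tested genes had a smaller SD in that group. In sef1Δ in YPD 54.0% of genes had a smaller SD than GDH3.

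In YPGly, GDH3 averaged 0.68 ± 0.24 log2 units higher in sef1Δ than in WT, or 1.60-fold, and this difference did not pass the test (limma adjusted p = 0.254 over all genes; exact two-sided permutation p = 0.0857). Its 95% interval ran from 0.14 to 1.21. The second probe gave 0.67 ± 0.28 (limma adjusted p = 0.372). With the replicate block the difference was 0.68 ± 0.21, and it was not called either (limma adjusted p = 0.0995). Same-numbered arrays differed by 0.85, -0.12, 1.22 and 0.75, so 3 of 4 numbers were higher in sef1Δ and number 2 was not. Leaving out that WT array, replicate 2, gave 0.90 ± 0.19 (limma adjusted p = 0.0743), and leaving out replicate 3 of sef1Δ gave 0.64 ± 0.27 (limma adjusted p = 0.484). Within slide 1 the difference was 0.37 and within slide 2 it was 0.99. The call therefore hung on the threshold used. With the methods' t-test, which takes an uncorrected p and the same fold, GDH3 passed, as did 3.57% of all genes in that direction. With the corrected limma test 0.729% of genes were called higher in sef1Δ, 31 in all, and GDH3 was not among them.

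The strain difference in YPGly minus that in YPD was 0.88 ± 0.48 log2 units for GDH3, which is also the amount by which the fall on glycerol was smaller in sef1Δ. It did not pass the test (limma over all 16 arrays, adjusted p = 0.592), and its 95% interval ran from -0.14 to 1.90. In that test 0.658% of genes were called in either direction. Without replicate 4 of WT in YPD the value was 0.50 ± 0.38 (limma adjusted p = 0.734), without replicate 3 of sef1Δ in YPGly it was 0.84 ± 0.51 (limma adjusted p = 0.679), and within slides 1 and 2 it was 0.40 and 1.35.

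**Figure D2:**
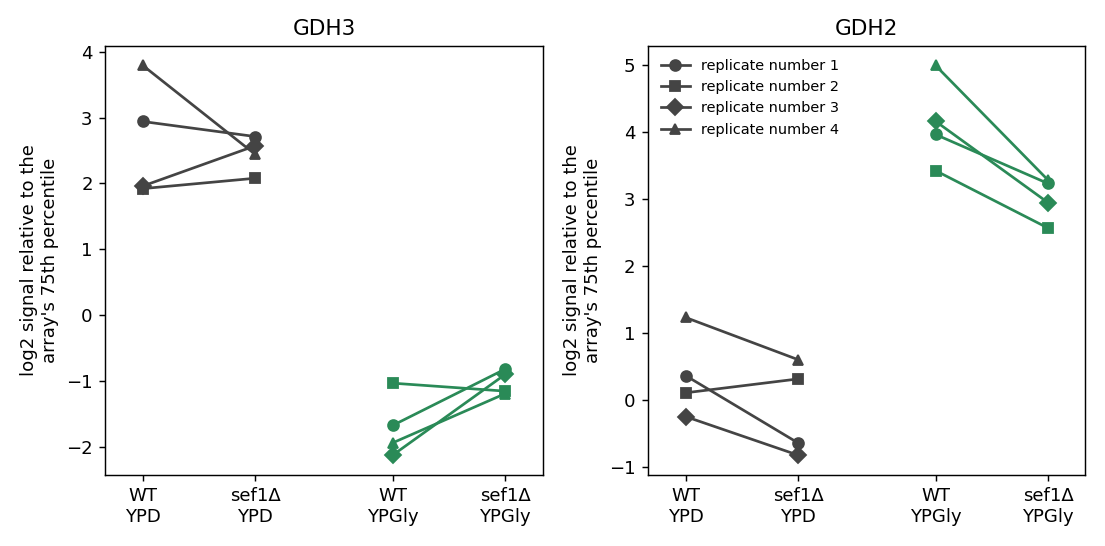
Log2 signal of GDH3 (left) and GDH2 (right) relative to each array's 75th percentile, with a line joining the WT and sef1Δ arrays of the same replicate number in YPD (grey) and in YPGly (green). In YPGly GDH3 is higher in sef1Δ for 3 of 4 numbers, whereas GDH2 is lower in sef1Δ for all 4, and in YPD the GDH3 lines cross.

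GDH2 (SAKL0E13024g), the NAD-dependent dehydrogenase that breaks glutamate down, changed in the opposite direction to GDH3. In WT it read 0.37, 0.11, -0.24 and 1.23 in YPD and 3.96, 3.42, 4.16 and 4.99 in YPGly. The groups did not overlap, and GDH2 rose by 3.77 ± 0.37 log2 units (limma adjusted p = 2.72e-05). In sef1Δ it read -0.64, 0.32, -0.82 and 0.61 in YPD and 3.23, 2.57, 2.95 and 3.28 in YPGly. Here too no array overlapped, and the rise was 3.14 ± 0.33 (limma adjusted p = 5.78e-05), or 3.16 ± 0.37 without replicate 3 in YPGly. On each array the log2 signal of GDH2 minus that of GDH3 does not depend on any scaling by 1 factor per array, and this difference moved by 8.11 between media in WT and by 6.60 in sef1Δ.

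Between strains in YPGly, GDH2 was lower in sef1Δ by 1.13 ± 0.31 log2 units, and the WT arrays (3.42 to 4.99) lay above all sef1Δ arrays (2.57 to 3.28). This did not pass the test (limma adjusted p = 0.134, or 0.305 without replicate 3 of sef1Δ, where the difference was -1.11), but it did when the replicate number, which pairs the WT and sef1Δ arrays, was taken as a block (limma adjusted p = 0.0117). Groups did not overlap for 9.54% of all genes in this comparison. In YPD the GDH2 difference was -0.50 ± 0.38 (limma adjusted p = 0.999). GLT1 (SAKL0F11638g), the glutamate synthase, stayed in a narrow range. It averaged 2.12 ± 0.11 in WT in YPD, 2.36 ± 0.35 in WT in YPGly, 1.91 ± 0.23 in sef1Δ in YPD and 2.57 ± 0.36 in sef1Δ in YPGly (SD, n = 4 each). The change between media was 0.24 ± 0.19 in WT (limma adjusted p = 0.314) and 0.66 ± 0.21 in sef1Δ, and only the second was called (limma adjusted p = 0.0282). The sef1Δ call was lost in 9 of 24 alternative settings, either slide alone and 6 of 8 single-array omissions among them, and the difference between the strains in this change was not called (limma adjusted p = 0.708). GLN1, the glutamine synthetase of the same route, was not analysed here because no identifier for it was held.

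A list of 48 glutamate-linked genes was set beside GDH3. It held genes of glutamate, 2-oxoglutarate, amino acid, ammonium and NADPH metabolism, with permeases and transcription factors of nitrogen and amino acid use. Of these, 47 were on the array and 43 had enough signal to be tested. Some were tested only through a single medium, among them IDP3 through YPGly and MEP2 and ALD6 through YPD. That filter favoured the direction of their calls between media. The list was drawn up from ortholog tables held in part, several of which hold genes picked by the study for Sef1 binding or for a change in expression on these arrays, so its counts are not independent evidence of a direction. In WT, 13 of the 43 were lower and 14 higher in YPGly, which is 62.8% called against 41.9% of all tested genes. By direction, the shares of all tested genes were 24.3% (lower) and 17.5% (higher) in WT, against 22.4% and 18.1% in sef1Δ. Their median change was 0.27 beside -0.14 for all genes. In sef1Δ, 10 were lower and 13 higher, or 53.5% against 40.5%, with medians of -0.05 and -0.11. In both strains 8 genes were called lower and 10 were called higher, and none was called in opposite directions. The shares of all tested genes called alike or oppositely in both strains are not given here, so these counts have no baseline. The split between lower and higher genes depended on the scaling. When arrays were scaled to bright positive control spots, which moved the median of all genes up by 0.69 in WT and by 0.33 in sef1Δ, the WT counts became 4 lower and 23 higher, and those of sef1Δ became 7 and 14. Without replicate 3 of sef1Δ in YPGly the sef1Δ counts were 10 lower and 12 higher. On the control-spot scale GDH3 changed by -3.65 in WT and -3.14 in sef1Δ. The shares of all genes called on that scale, or without that array, are not given here, so those counts have no baseline.

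Among the 9 genes tested that were grouped around 2-oxoglutarate, the glutamate carrier gene AGC1 included, 2 were lower and 3 higher in YPGly in WT. In sef1Δ 1 was lower, IDH2, and 3 were higher. These are 55.6% and 44.4% called, against 41.9% and 40.5% of all tested genes. IDP3, an NADP-dependent isocitrate dehydrogenase that is peroxisomal in S. cerevisiae, rose by 6.36 ± 0.43 in WT and by 7.36 ± 0.49 in sef1Δ. Its other probe rose by 8.53 in WT and by 8.48 in sef1Δ. In YPD IDP3 averaged only -3.23 in WT and -3.76 in sef1Δ. It reached the signal needed for testing only in YPGly, and the size of its rise is uncertain. KGD2, a subunit of the 2-oxoglutarate dehydrogenase complex, rose by 1.37 ± 0.18 in WT and by 0.73 ± 0.17 in sef1Δ. The citrate and 2-oxoglutarate carrier gene YHM2 fell by 1.22 ± 0.18 in WT. The mitochondrial aspartate-glutamate carrier gene AGC1 fell by 0.94 ± 0.24 in WT. Neither carrier gene was called in sef1Δ, where YHM2 changed by -0.79 ± 0.34 and AGC1 by -0.40 ± 0.35. Each was called there when a single array was left out, YHM2 without replicate 4 in YPD (-1.17) and AGC1 without replicate 2 in YPGly (-0.80). Both carrier calls in WT, and those of ASN2, ARG5,6 and MAE1 below, were lost when arrays were scaled to the control spots.

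The genes of this list that were called between strains were IDH1 and IDH2, the subunits of the NAD-dependent isocitrate dehydrogenase, which makes 2-oxoglutarate. In YPGly IDH1 differed by -2.66 ± 0.43 and IDH2 by -2.37 ± 0.23 log2 units, sef1Δ minus WT (limma adjusted p = 0.0155 and 0.00116). Without replicate 1 of WT in YPGly the IDH1 call was lost (-2.70, limma adjusted p = 0.0597), and without replicate 3 of sef1Δ both calls were kept (-2.85 and -2.39). In YPD they differed by -1.77 ± 0.23 and -1.47 ± 0.20 (limma adjusted p = 0.0417 and 0.0431), calls that 19 of 24 alternative settings lost for each gene, 7 of 8 single-array omissions for IDH1 and all 8 for IDH2 among them. The differences stayed between -1.90 and -1.40 for IDH1 and between -1.58 and -1.10 for IDH2 in these settings, and the replicate block called both (limma adjusted p = 0.00307 each). These 2 were the only ones called of the 43 genes tested in either medium, both lower, where 0.494% of all tested genes were called lower in YPGly and 0.0705% in YPD. With the replicate number as a block, 6 of the 43 were called lower in YPGly and 0 higher, against 2.09% of all genes lower and 3.15% higher. The 4 added were GDH2, KGD2, the mitochondrial NADP-dependent isocitrate dehydrogenase IDP1, and the homocitrate synthase gene LYS21 (SAKL0F10032g). GDH3 was not called with the block (limma adjusted p = 0.0995).

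Of 19 tested genes grouped under amino acid and 4-aminobutyrate metabolism, not all of which act on glutamate itself, YPGly gave 3 lower and 8 higher in WT. In sef1Δ it gave 3 and 5. These are 57.9% and 42.1% called, against 41.9% and 40.5% of all tested genes. The largest rises in WT were those of a LYS21 copy (SAKL0H09746g), which starts lysine synthesis from 2-oxoglutarate, at 1.97 ± 0.37, and of a UGA2 copy (SAKL0H19514g), a succinate semialdehyde dehydrogenase of the 4-aminobutyrate pathway, at 1.27 ± 0.20. The asparagine synthetase gene ASN2 changed by -1.25 ± 0.25 in WT and -1.94 ± 0.22 in sef1Δ, lower in both. ARG5,6, which acts on acetylated glutamate in arginine synthesis, fell by 0.78 ± 0.18 in WT, and its change of -0.53 ± 0.16 in sef1Δ was under the fold threshold, which it passed without replicate 2 in YPGly (-0.59).

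Of 10 tested genes of nitrogen uptake and its control, YPGly gave 5 lower and 2 higher in WT, and in sef1Δ 3 of each. These are 70% and 60% called, against 41.9% and 40.5% of all tested genes. The largest falls were those of MEP2, an ammonium permease, and of DUR1,2, which releases ammonium from urea. MEP2 changed by -3.68 ± 0.46 in WT and -2.78 ± 0.26 in sef1Δ, and it reached the signal needed for testing only in YPD. DUR1,2 changed by -3.26 ± 0.43 and -2.34 ± 0.24 (limma adjusted p = 0.000197 and 5.11e-05). The largest rises were those of DIP5, a dicarboxylic amino acid permease that carries glutamate and aspartate in S. cerevisiae, and of PUT4, a proline permease. DIP5 rose by 2.63 ± 0.45 in WT and by 2.38 ± 0.33 in sef1Δ, and PUT4 by 2.11 ± 0.37 and 2.18 ± 0.39.

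The 3 tested genes grouped under NADPH supply were called lower in YPGly in both strains, where 24.3% of all tested genes were in WT and 22.4% in sef1Δ. The NADP-dependent isocitrate dehydrogenases were counted with the 2-oxoglutarate genes and did not fall alike. IDP3 rose by 6.36 in WT and 7.36 in sef1Δ, and IDP1 changed by 0.35 and -0.27 and was not called. Under scaling to the control spots ALD6 alone kept its call in either strain. ALD6 reached the signal needed for testing only in YPD, so the filter favoured its being called lower. ALD6, an NADP-dependent acetaldehyde dehydrogenase, changed by -5.72 ± 0.46 in WT and -5.48 ± 0.39 in sef1Δ. MAE1, the mitochondrial malic enzyme, changed by -1.32 ± 0.50 and -1.04 ± 0.32 (limma adjusted p = 0.0474 and 0.0248). The MAE1 groups overlapped in both strains, and its WT call was lost in 16 of 24 alternative settings, 6 of 8 single-array omissions among them, and its sef1Δ call in 8 of 24. GND1, a phosphogluconate dehydrogenase named here after its values were seen, changed by -1.06 ± 0.16 and -0.97 ± 0.18 (limma adjusted p = 0.000459 and 0.00153), and by -0.37 and -0.64 with the control spots.

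**Figure D3:**
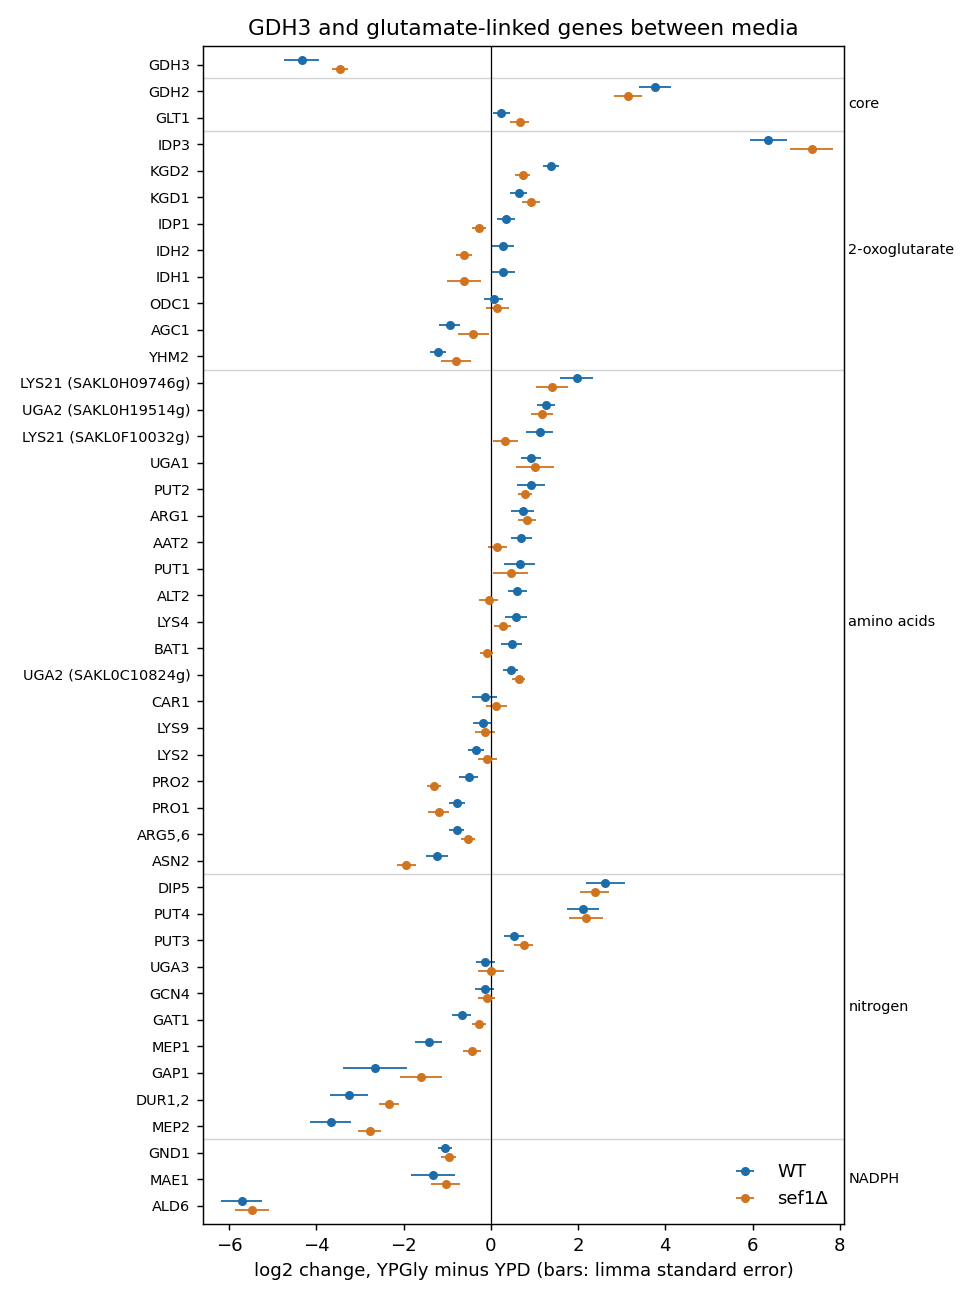
Log2 change from YPD to YPGly (horizontal axis) in WT and in sef1Δ for GDH3 and the 43 tested genes of the glutamate-linked list, grouped by role, with bars for limma's standard error. GDH3 at -4.34 and -3.46 lies far to the left of 0, GDH2 at 3.77 and 3.14 to the right, and IDP3 and ALD6 lie furthest from 0.

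The 5 genes whose pattern over the 16 arrays was most like that of GDH3 were found by centring each gene's log2 signals on its own mean and taking the root mean square difference from GDH3. This measure mostly follows the change between media, on which GDH3 was chosen. Closest was SAM2 (SAKL0C01870g), an S-adenosylmethionine synthetase, at 0.609 log2 units, followed by BUD16 (SAKL0D11506g), a putative pyridoxal kinase, at 0.610. SAKL0F04356g and SAKL0G13288g, which the annotation held here does not name, came next at 0.613 and 0.665, and MEP2 was the fifth at 0.677. All 5 were lower in YPGly in both strains, with changes of -3.68 to -2.98 in WT and -3.13 to -2.78 in sef1Δ, and each fell less than GDH3. None was called between strains in YPGly, where their differences lay between -0.15 and 0.36. All but SAM2 reached the signal needed for testing only in YPD, so their differences in YPGly rest on weak signal. On replicate 4 of WT in YPD GDH3 was 3.19 above its own mean over the 16 arrays, MEP2 3.29 and SAKL0F04356g 3.14 above theirs, and the other 3 similar genes 1.88 to 2.32. On the other 3 arrays of that group GDH3 was 1.32 to 2.34 above, MEP2 0.882 to 2.07 and SAKL0F04356g 1.00 to 2.13. These genes were picked for likeness over arrays that include this one.

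**Figure D4:**
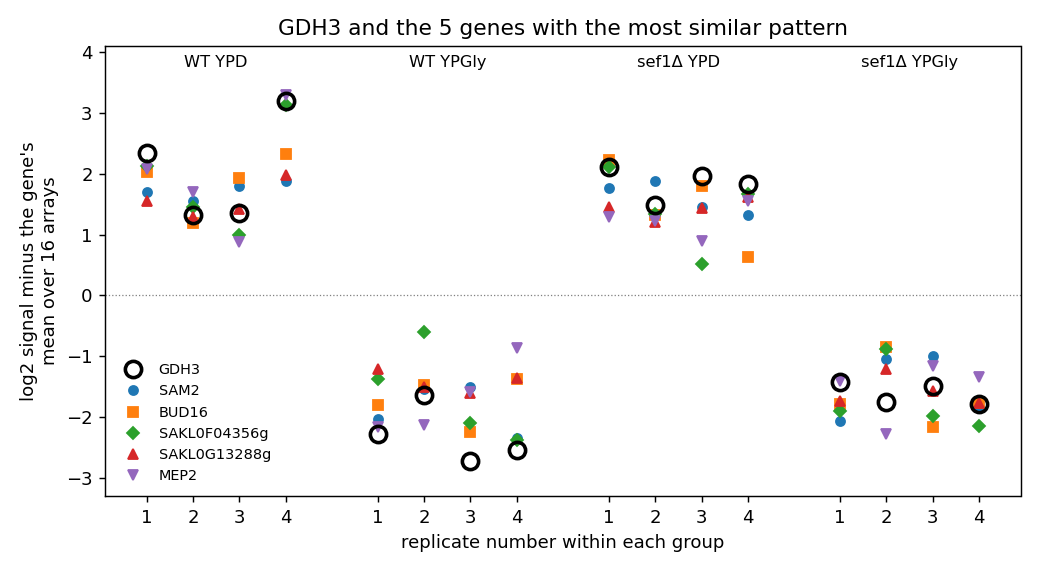
Log2 signal minus the gene's own mean over 16 arrays (vertical axis) for GDH3 (open circles) and the 5 genes with the most similar pattern, for each replicate number in the 4 groups (horizontal axis). All points are above 0 in YPD and below 0 in YPGly, and GDH3 and MEP2 reach 3.19 and 3.29 on replicate 4 of WT in YPD.

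By locus tag, none of the 3 tested genes among the 6 arrayed nearest to GDH3 fell in WT as it did. HXT1 (SAKL0D14960g), named for a hexose transporter and next to GDH3 on one side, rose in YPGly by 3.97 ± 0.31 in WT and by 3.44 ± 0.36 in sef1Δ. In YPD it averaged -5.09 in WT, well above background on 3 of 4 arrays, and -5.08 in sef1Δ. It reached the signal needed for testing only in YPGly, and the size of its rise is uncertain. ADH6 (SAKL0D14938g), named for an NADPH-dependent alcohol dehydrogenase, changed by 0.82 ± 0.43 in WT, which was not called (limma adjusted p = 0.134) except in 3 of 24 alternative settings, among them without replicate 4 in YPGly (1.16). In sef1Δ it fell by 0.61 ± 0.22 (limma adjusted p = 0.0465), a call that 18 of 24 alternative settings lost. SAKL0D14916g rose by 0.66 ± 0.17 in WT (limma adjusted p = 0.00876) and changed by 0.51 ± 0.22 in sef1Δ (limma adjusted p = 0.0846), a change called without replicate 3 in YPGly (0.63). On the other side SAKL0D15026g, SAKL0D15070g and SAKL0D15092g had too little signal to be tested, and the latter 2 were not well above background on any array.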

How the data were processed

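The 16 one-colour Agilent arrays of L. kluyveri fell into 4 groups of 4 taken from the sample titles. Per the study's methods and the file headers, the authors labelled cDNA with 1 dye, and image analysis was by Feature Extraction 10.5.1.1, as also listed in the submitters' processing notes. The deposited processed signal of a spot is a linear intensity from which background has been subtracted, before any scaling between arrays. The deposited median spot and background intensity served 1 alternative. The deposited series matrix holds the authors' log2 values, which were offset by 1 constant per array from those computed here, and these served as an alternative. The deposited scanner flags are codes used as given.

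Each processed signal was divided by the 75th percentile of its array's 10620 gene probes and taken to log2. Non-uniform outlier spots, 32 in all, were dropped. Of the probes of a gene, the one with the higher mean signal was used. Genes were tested when its processed signal reached 200 on all 4 arrays of some group, as it did for 4255 of 5316 genes. HXT1 and IDP3 met this only in YPGly, and MEP2, ALD6, BUD16, SAKL0F04356g and SAKL0G13288g only in YPD. Their changes between media are therefore given without a p-value. A change is relative to the bulk of transcripts of the same sample. Signal strength takes the place of read depth on arrays, and the number of arrays limits the precision.

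The lmFit and eBayes functions of limma 3.58.1, under R 4.3.3, compared groups over their 8 arrays with no covariate, and the difference between strain effects over all 16. Adjusted p-values of genes are limma's, Benjamini-Hochberg over all genes tested. The fit was tested on simulated data. Labels call the repeats biological. Deviations from the group means, across genes, correlated between WT and sef1Δ arrays of one number at 0.366 to 0.712 in YPD and 0.208 to 0.701 in YPGly. In YPD 8 of 8 arrays correlated best with their own number, and in YPGly 6 of 8. The numbers thus pair the strains, less closely in YPGly. The main strain tests took no block, and the replicate block is given as an alternative. Between media the lowest was 0.000475 in WT and 0.0868 in sef1Δ, and the numbers were not taken as pairs. GDH3, the gene list and the tests were chosen with earlier results of these data known. Besides GDH3, the text names the core list genes, those called between strains, the largest 2 called rises and 2 called falls in WT of each other group of the list, 3 arrayed neighbours on each side and the 5 genes most like GDH3. GND1, IDP1 and the LYS21 copy SAKL0F10032g are mentioned besides, and counts over the named genes leave them out. Alternatives were 5 other scalings or backgrounds, the filter on dim probes, the choice of probe, replicate and slide blocks, single slides, a shared spread, the methods' t-test and leaving out each array. Gene names come from the study's tables, held in part, and genome coordinates were not used here.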

Additional observations from a re-analysis of the deposited data

Results flagged for a closer look

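No group of 4 GDH3 arrays, by either probe, had a single array far from the rest. Over the named genes and the 4 groups, 108 sets of 4 arrays were examined for an array whose gap to its nearest neighbour, as a share of the set's range, exceeded Dixon's 95% critical value. Chance gives such a gap in about 1 set in 20, and 10 sets had one. All values are log2 signals relative to the array's 75th percentile. Replicate 2 of sef1Δ in YPGly stood apart for 5 genes, at -0.27 for AGC1, 2.32 for LYS21 (SAKL0H09746g), -0.65 for UGA2 (SAKL0H19514g), 1.81 for ASN2 and -1.59 for IDH1. GDH3 on that array, at -1.15, lay within its group. Replicate 4 of sef1Δ in YPD stood apart at 2.26 for GLT1, -0.13 for YHM2 and 1.48 for PUT4. Replicate 4 of WT in YPGly stood apart at 4.30 for IDP3 and 1.08 for LYS21 (SAKL0H09746g). None of the named genes passed the test of a difference between strains in the change between media.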

How the results depend on the processing

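GDH3 kept its fall in YPGly in both strains under every alternative run, with changes of -4.90 to -3.65 in WT and -3.59 to -3.14 in sef1Δ. The value that moved most in sef1Δ, -3.14, came with scaling to the bright positive control spots. That scaling moved the median of all genes by 0.37 in the YPD comparison of strains, and with it the small GDH3 difference from -0.20 to 0.17. Relative to that median it was -0.21 either way, as any scaling by 1 factor per array must give. Leaving out replicate 4 of WT in YPD turned the difference to 0.18 (range without 1 array -0.45 to 0.18), where no setting called it. In YPGly the strain difference stayed between 0.37 and 0.99, with limma adjusted p of 0.0743 to 1.00, and only the methods' t-test without correction called it, at 0.68. The difference between the strain effects stayed between 0.40 and 1.35 and was not called. Of the genes other than GDH3, GLT1 alone reversed, uncalled in each case. Its YPD strain difference went from -0.20 to 0.17 with the same shift of all genes, and its YPGly difference from 0.22 to -0.012 within slide 2.

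Of the glutamate-linked genes in YPGly against YPD in WT, the control spots gave 4 lower and 23 higher, slide 1 gave 7 and 9, and slide 2 gave 8 and 6. The methods' t-test after correction gave 9 higher, beside 15.2% of all genes. In sef1Δ slide 1 gave 5 higher. Between strains in YPGly the replicate block gave 6 lower, the methods' t-test 7 lower and 1 higher without correction (2.12% and 3.57% of all genes) and 1 lower with it (0.282% of all genes), and either slide alone 0 lower. Leaving out 1 array gave 1 to 3 lower and 0 to 1 higher, with 1 lower without replicate 1 and 1 higher without replicate 4 of WT in YPGly. Fits within a slide have 2 arrays per group. Shares of all genes are not given here for the control spots, the single slides or the omissions of 1 array. Those counts therefore have no baseline. The replicate block changed no GDH3 call and raised the genes called between strains in YPGly from 52 to 223, but left those in YPD at 3. Between media, where the numbers were not taken as pairs, it gave 1856 calls instead of 1782 in WT and 1855 instead of 1723 in sef1Δ, and 6 of 8 arrays in each strain correlated best with their own number. Other causes of these changes were not tested.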
